A study of Mus musculus with 6 samples.

Results

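Matrix glycoproteins, proteoglycans and the enzymes that hydroxylate and crosslink collagen were examined in mammary carcinoma cells that had survived methotrexate. The group comprised 40 genes, chosen by name with earlier results of these data known. Of the 40, 36 were measured by a probe set with a single gene symbol, among 19933 genes tested on the arrays. Loxl2 was covered by 1 probe set that it shares with a second symbol, and Spp1, Fbn1 and Efemp2 were not analysed here. The samples were 6 Affymetrix arrays of total RNA from cultured 4T1 cells, a mammary carcinoma line of BALB/c mice. Of these, 3 arrays held untreated parental cells, called WTR-, and 3 held MR13 cells, which descend from 4T1 cells that outlived the folate antagonist methotrexate. By the labels, selection used 13 µg/ml of the drug for at most 2 weeks, until colonies of survivors were seen. Concentration and duration differ in the study's own description, by which the survivors were moved back to normal medium. Whether methotrexate was present when RNA was extracted is not stated in the labels. MR13 is 1 selected line and the RNA came from triplicate wells, so p values measure the spread between wells and not between independent selections.

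The extracellular matrix is built from collagens together with glycoproteins such as fibronectin and the fibulins, elastic microfibrils, and proteoglycans that carry glycosaminoglycan chains. Before secretion, prolyl hydroxylases stabilise the collagen triple helix and lysyl hydroxylases prepare lysines, and outside the cell lysyl oxidases join the fibres through these residues. In mammary tumors most matrix is laid down by fibroblasts, but carcinoma cells also produce fibronectin, SPARC and thrombospondins, and a stiffer, more crosslinked matrix is a known companion of invasion.

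Of the 36 measured genes, 15 were higher and 5 lower in MR13 than in WTR- cells at an adjusted p under 0.05 by limma, and 16 did not pass. Over all 19933 genes, 37.6% were called, 17% higher and 20.6% lower, against 55.6%, 41.7% and 13.9% of the matrix genes. At least 2-fold differences were found for 10 of the 36 (27.8%), 8 higher and 2 lower, where the share over all genes was 4.06% (1.96% higher and 2.1% lower). The values of the 3 arrays of 1 group lay wholly outside those of the other for 24 of the 36 (66.7%), beside 47.4% of all genes. As the genes were chosen with earlier results of these data known, these shares are descriptions and not tests. The median log2 difference (MR13 minus WTR-) was 0.11, beside 0.01 over all genes, and it was 0.06 without WTR- replicate 3 and 0.17 without the dimmest 30% of genes. The members went both ways, from -1.44 to 2.47. Fbln1, Mgp, Dcn, Plod1, Thbs3, P4ha2, Tgfbi and Sparc rose at least 2-fold, and Loxl4 and Postn fell at least 2-fold. Against a minimum difference of 1.5-fold (limma's treat), those 10 and P4ha1 passed, and the other 9 calls were lost. In bulk RNA, fewer cells of a type and less RNA per cell cannot be told apart. Of the 36, 8 were among the dimmest 30% of genes tested (Sparcl1, Postn, Efemp1, Lum, Bgn, Fmod, Vcan and Lox), and background signal can understate their differences. Outside the dimmest 30%, 18 of 28 matrix genes (64.3%) were called, beside 50.7% of all genes at that brightness.

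**Figure D1:**
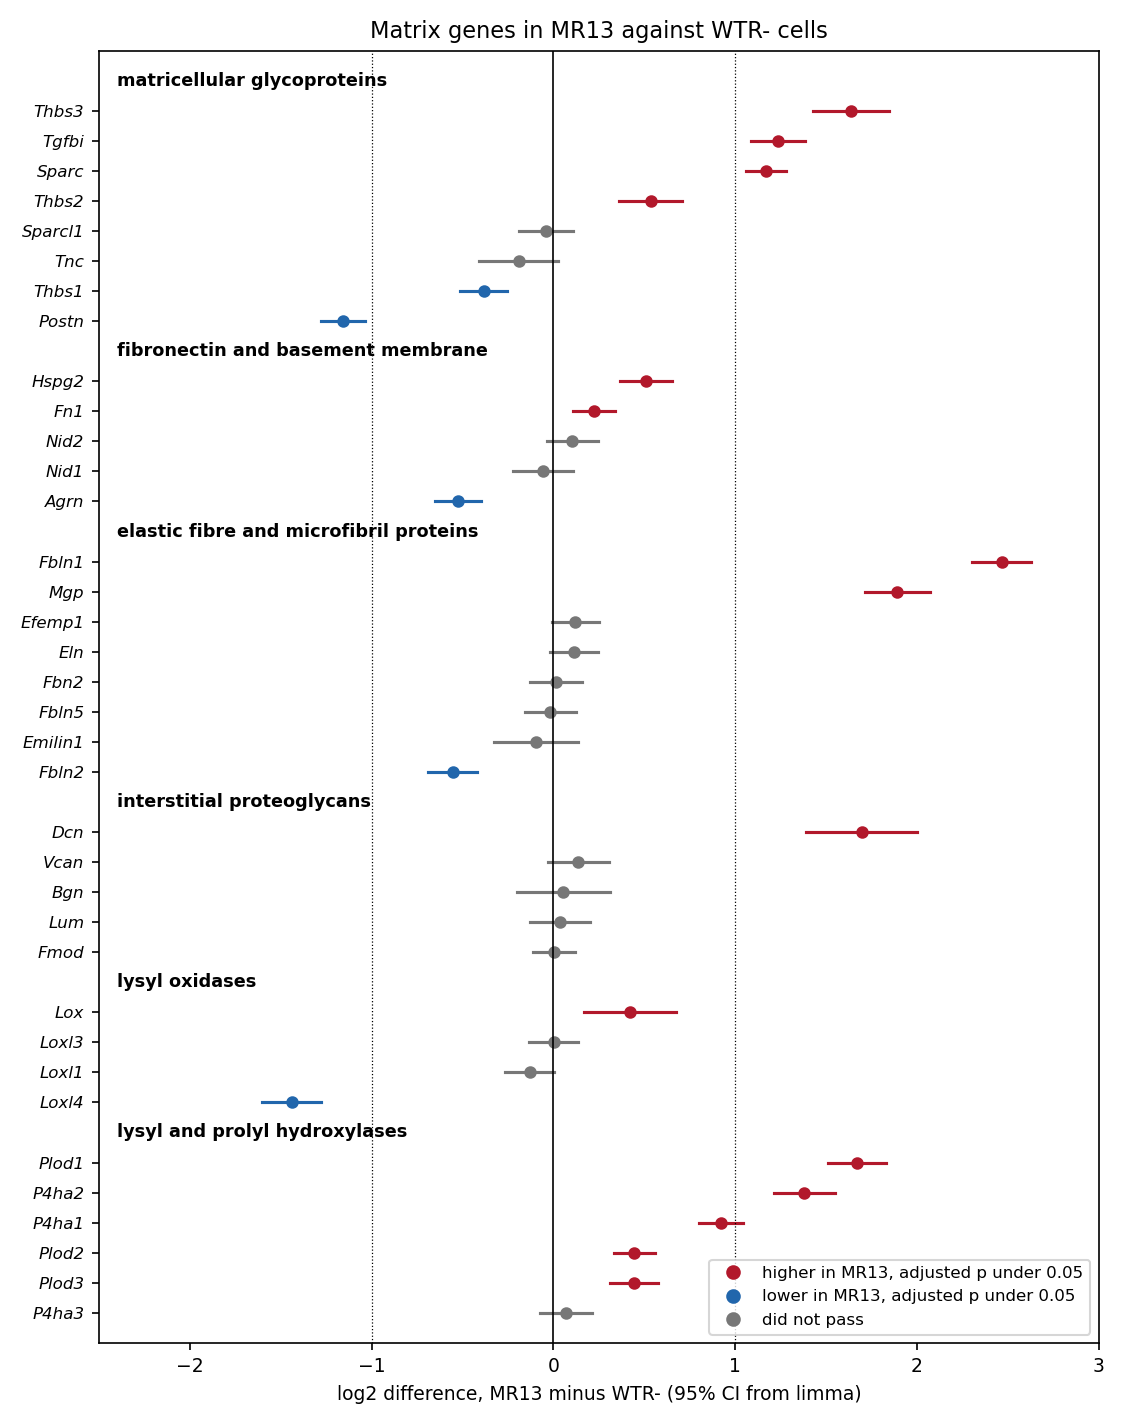
Log2 difference of each measured matrix gene (MR13 minus WTR-, x axis) with its 95% confidence interval from limma, grouped by role (y axis); points are genes, with colour for called higher, called lower or not called, and dotted lines mark 2-fold. Fbln1 lies farthest to the right at 2.47 and Loxl4 farthest to the left at -1.44, and 5 of the 6 hydroxylases were called higher.

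Markers of the cells themselves were examined first. Of 7 epithelial markers, 6 were lower in MR13 (85.7%, beside 20.6% of all genes). The mean log2 level of the list was 11.70 to 11.75 on the WTR- arrays and 9.08 to 9.21 on the MR13 arrays. The keratin Krt8 stayed at 13.41 in WTR- and 13.53 in MR13. Of 9 fibroblast markers, 3 were higher in MR13 (33.3%, beside 17% of all genes), namely Pdgfra, Pi16 and Col14a1. The list mean moved from between 5.81 and 5.98 to between 6.29 and 6.41. Pdgfra read 8.37 in WTR- and 10.19 in MR13, whereas Dpt (4.19 and 4.35) and Fap (4.26 and 4.33) were among the dimmest 30% of genes over all arrays and were not called. Pdgfrb, Clec3b, Thy1 and Col3a1 were not among those dimmest genes and were not called either. Their log2 differences were 0.21, -0.05, 0.09 and 0.13. Of 6 pericyte and smooth muscle markers 2 were higher (33.3%). Of 9 myeloid markers 2 were higher (22.2%, near the 17% of all genes). They were Cd14 (9.35 in WTR- and 10.01 in MR13) and Cd68 (8.77 and 9.12), while Ptprc read 5.17 and 5.22 and was not called. Ptprc was 1 of 6 myeloid markers among the dimmest 30% of genes, none of which was called. Of the 3 brighter ones, 2 were called (66.7%, beside 50.7% of all genes at that brightness). None of 6 endothelial markers was called by limma, and none had an unadjusted p under 0.05. Of these 6, 4 were among the dimmest 30% of genes, where a change could go unseen. Fibroblasts make many of the matrix proteins below, and the part of these marker shifts in the matrix results was not tested.

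The hydroxylases that modify collagen chains in the endoplasmic reticulum went mainly one way. Of 6 measured, 5 rose and none fell, where 17% of all genes rose and 20.6% fell. Their median log2 difference was 0.68, beside 0.01 over all genes. P4ha1 and P4ha2 encode catalytic subunits of prolyl 4-hydroxylase, and Plod1 and Plod3 encode lysyl hydroxylases. The stretches upstream of these 4 genes, which rose, are shown with that of P4ha3, which did not pass. Those of Fbln1 and Loxl4, the genes with the largest rise and the largest fall of all 36, are added. Plod2 also rose, but it had no entry among the promoters used, so no window is shown or counted for it. Each window holds the 250 bases before the annotated start site, read 5′ to 3′ along the gene, from the RefSeq promoters of GRCm38.p6. The capitals mark ACGTG or GCGTG on either strand, the core letters to which hypoxia-inducible factors are known to bind.
P4ha1: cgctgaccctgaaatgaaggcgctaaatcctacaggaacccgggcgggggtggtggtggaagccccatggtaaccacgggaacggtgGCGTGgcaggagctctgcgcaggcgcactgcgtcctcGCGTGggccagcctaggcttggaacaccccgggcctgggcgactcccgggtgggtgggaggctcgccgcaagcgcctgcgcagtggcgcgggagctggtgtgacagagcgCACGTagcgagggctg
P4ha2: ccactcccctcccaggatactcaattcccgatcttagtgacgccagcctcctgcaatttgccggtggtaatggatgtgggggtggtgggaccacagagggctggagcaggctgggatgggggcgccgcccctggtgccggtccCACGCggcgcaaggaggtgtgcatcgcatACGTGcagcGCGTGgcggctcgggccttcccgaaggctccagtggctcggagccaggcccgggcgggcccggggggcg
P4ha3: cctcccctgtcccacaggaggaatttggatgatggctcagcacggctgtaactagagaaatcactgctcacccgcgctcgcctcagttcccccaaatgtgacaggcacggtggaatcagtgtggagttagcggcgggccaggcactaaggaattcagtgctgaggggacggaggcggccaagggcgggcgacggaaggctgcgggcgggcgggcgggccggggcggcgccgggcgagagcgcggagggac
Plod1: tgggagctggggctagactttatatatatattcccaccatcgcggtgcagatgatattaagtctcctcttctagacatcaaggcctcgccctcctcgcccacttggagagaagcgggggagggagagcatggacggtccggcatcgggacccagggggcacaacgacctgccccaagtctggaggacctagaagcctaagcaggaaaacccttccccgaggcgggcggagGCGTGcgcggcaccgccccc
Plod3: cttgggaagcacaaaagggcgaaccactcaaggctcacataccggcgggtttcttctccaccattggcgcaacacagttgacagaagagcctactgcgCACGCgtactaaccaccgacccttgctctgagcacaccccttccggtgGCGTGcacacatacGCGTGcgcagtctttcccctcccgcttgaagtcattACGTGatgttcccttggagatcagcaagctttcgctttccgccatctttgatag
Fbln1: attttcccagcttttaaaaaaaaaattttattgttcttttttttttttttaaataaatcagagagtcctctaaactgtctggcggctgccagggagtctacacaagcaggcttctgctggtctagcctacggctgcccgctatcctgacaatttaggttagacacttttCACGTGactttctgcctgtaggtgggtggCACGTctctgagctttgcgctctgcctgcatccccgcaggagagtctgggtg
Loxl4: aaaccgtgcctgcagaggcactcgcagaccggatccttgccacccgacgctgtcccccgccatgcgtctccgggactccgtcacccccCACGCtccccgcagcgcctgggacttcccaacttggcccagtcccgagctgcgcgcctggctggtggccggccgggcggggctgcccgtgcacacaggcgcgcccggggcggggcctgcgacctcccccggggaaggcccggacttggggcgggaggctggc
The windows lie at chr10:59323046-59323295 on the plus strand for P4ha1, chr11:54100674-54100923 (plus) for P4ha2, chr7:100285270-100285519 (plus) for P4ha3, chr4:147936777-147937026 (minus) for Plod1, chr5:136986769-136987018 (plus) for Plod3, chr15:85205699-85205948 (plus) for Fbln1 and chr19:42612807-42613056 (minus) for Loxl4. The core was found 3 times in P4ha1, 3 times in P4ha2, once in Plod1, 4 times in Plod3 and not in P4ha3. Fbln1 held it at 3 places, of which those at -81 and -80 overlap in CACGTG, also an E-box, and Loxl4 held it once, at -162. Among all 32851 promoter windows of the same length, of which a gene can have several, 38.6% held the core. Among the 23 measured matrix genes with an entry, each taken by its first window, 13 did (56.5%). The letters CAGGTG (the E-box of SNAI and ZEB factors), TTCNNNGAA (a STAT element), TGANTCA (an AP-1 site) and GGAATG (a TEAD site) were each found in 0 of the 5 hydroxylase windows. They occur in 17.2%, 7.02%, 6.75% and 12.6% of all windows, and in 0, 0, 1 and 1 of the windows of the 23 matrix genes. A match describes letters only and does not show that a factor binds there.

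Plod1, whose product hydroxylates lysines along the collagen helix, rose the most among these enzymes. Its values were 8.69, 8.79 and 8.65 on the WTR- arrays and 10.29, 10.51 and 10.34 on the MR13 arrays, all on the log2 scale, a 3.18-fold difference (adjusted p = 2.94e-07). The groups were far apart. P4ha2 read 6.41, 6.39 and 6.55 in WTR- and 7.70, 7.87 and 7.92 in MR13 (2.60-fold, adjusted p = 1.27e-06), and P4ha1 read 9.58, 9.61 and 9.55 against 10.44, 10.52 and 10.54 (1.90-fold, adjusted p = 1.89e-06). Every MR13 array lay above every WTR- array for both subunits. Plod2, whose product acts on the collagen ends from which crosslinks form, read 9.81, 9.79 and 9.85 in WTR- and 10.25, 10.26 and 10.27 in MR13 (1.36-fold, adjusted p = 9.46e-05). Plod3, a lysyl hydroxylase that also adds sugars to hydroxylysine, read 10.13, 10.08 and 10.09 against 10.46, 10.61 and 10.55 (1.36-fold, adjusted p = 0.000263). These rises were smaller than those of Plod1 but again without overlap. P4ha3, a further catalytic subunit, lay at 6.44 ± 0.01 in WTR- and 6.51 ± 0.11 in MR13 (SD, n = 3 each), with a log2 difference of 0.07 (95% CI -0.08 to 0.21). The β subunit of prolyl 4-hydroxylase, P4hb, chosen after its values were seen, did not pass either (log2 difference 0.12, SE 0.05, adjusted p = 0.10).

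The lysyl oxidases, which crosslink collagen and elastin outside the cell, did not move as a group. Loxl4 fell 2.71-fold, from 9.90, 9.90 and 10.08 on the WTR- arrays to 8.60, 8.43 and 8.52 on the MR13 arrays (log2 difference -1.44, SE 0.07, adjusted p = 7.64e-07). A second probe set of Loxl4, not used for this value, gave 9.68 ± 0.05 and 8.51 ± 0.10 (SD, n = 3 each), a difference of -1.17. Both probe sets thus showed the fall, without overlap between groups. Lox, the founding member, was dim and read 4.33, 4.39 and 4.67 in WTR- and 4.68, 5.03 and 4.93 in MR13 (1.34-fold, adjusted p = 0.0154). The highest WTR- and the lowest MR13 value of Lox were nearly equal, and the call was lost without WTR- replicate 1 (adjusted p = 0.0589), WTR- replicate 2 (0.0551), MR13 replicate 2 (0.0630) or MR13 replicate 3 (0.0521), and by the methods' t-test (0.116). Loxl3 lay at 9.25 in both groups (difference 0.00, 95% CI -0.13 to 0.13), and Loxl1 differed by -0.13 (95% CI -0.26 to 0.00) and did not pass. The probe set that Loxl2 shares with a second symbol read 5.63 ± 0.10 and 5.75 ± 0.05 (SD, n = 3 each), and is named for no gene.

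**Figure D2:**
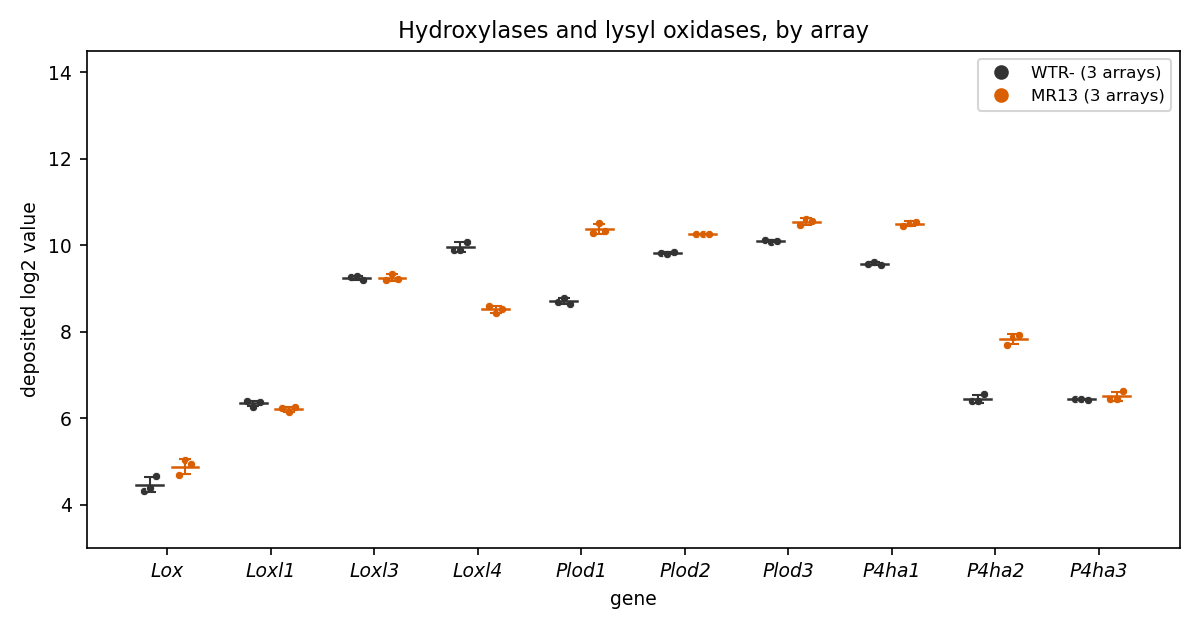
Deposited log2 values (y axis) of the 4 measured lysyl oxidases and 6 hydroxylases (x axis) for the 3 arrays of each group; dots show single arrays, lines the means and bars the SDs. Plod1 moves from 8.71 to 10.38 and Loxl4 from 9.96 to 8.52, while Loxl3 and P4ha3 overlap.

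Matricellular glycoproteins bind both matrix fibres and cell surface receptors and modulate adhesion rather than bear load. Of 8 measured, 4 rose (50%, beside 17% of all genes), 2 fell (25%, near the 20.6% of all genes) and 2 did not pass. The thrombospondins went different ways. Thbs3 read 6.38, 6.36 and 6.21 on the WTR- arrays and 7.80, 8.15 and 7.92 on the MR13 arrays (3.11-fold, adjusted p = 1.61e-06). Thbs2 read 5.73, 5.65 and 5.61 against 6.07, 6.17 and 6.35 (1.45-fold, adjusted p = 0.000486). Thbs1, an activator of latent TGF-β and inhibitor of angiogenesis, read 12.31, 12.18 and 12.25 against 11.88, 11.90 and 11.81, a fall by 1.30-fold (adjusted p = 0.000621). For all 3 thrombospondins the groups were apart, with MR13 above for Thbs2 and Thbs3 and below for Thbs1. Sparc, a collagen-binding glycoprotein, read 11.93, 11.91 and 11.89 in WTR- and 13.06, 13.10 and 13.08 in MR13 (2.25-fold, adjusted p = 2.65e-07). Tgfbi, a TGF-β-induced protein that binds integrins and collagens, read 6.73, 6.64 and 6.68 against 7.82, 8.01 and 7.92 (2.35-fold, adjusted p = 9.76e-07). Spread within either group was small beside both rises. Postn, which encodes the collagen-associated protein periostin, fell from 5.48, 5.52 and 5.56 to 4.42, 4.34 and 4.32 (2.23-fold lower, adjusted p = 4.86e-07). Its MR13 mean of 4.36 was not far above the 10th percentile of genes on the arrays (4.01 to 4.07), so the difference in signal may understate that in transcript. Sparcl1, a relative of Sparc, differed by -0.04 (95% CI -0.19 to 0.11), and did not pass. Tnc, which encodes the anti-adhesive protein tenascin C, read 6.48, 6.36 and 6.48 in WTR- and 6.11, 6.17 and 6.48 in MR13 (adjusted p = 0.16). MR13 replicate 3 lay within the WTR- range, and without that array the log2 difference was -0.30 (adjusted p = 0.0102).

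Elastic fibres consist of an elastin core and fibrillin microfibrils, to which fibulins and EMILIN1 attach. Of 8 measured genes placed here, 2 rose, 1 fell and 5 did not pass, so that the calls were as frequent as over all genes (37.5% and 37.6%). Fbln1, whose product also binds fibronectin and basement membranes, had the largest rise of the 36, from 7.92, 8.0 and 7.89 on the WTR- arrays to 10.27, 10.51 and 10.42 on the MR13 arrays (5.52-fold, log2 difference 2.47, SE 0.07, adjusted p = 3.33e-08). Mgp, a matrix protein that inhibits calcification, read 7.63, 7.41 and 7.67 against 9.55, 9.41 and 9.43 (3.71-fold, adjusted p = 2.54e-07). Both genes were higher on every MR13 array. Fbln2, a relative of Fbln1, moved the other way, from 10.56, 10.45 and 10.48 to 9.90, 10.02 and 9.91 (1.47-fold lower, adjusted p = 8.81e-05). Fbln5, a fibulin needed for elastic fibre assembly, differed by -0.02 (95% CI -0.16 to 0.12). Within the fibulins, therefore, 1 rose, 1 fell and 1 did not pass, and Efemp1, which encodes a further fibulin, differed by 0.12 (95% CI -0.01 to 0.25). The structural components Eln (0.11, 95% CI -0.02 to 0.24), Fbn2 (0.02, 95% CI -0.13 to 0.16) and Emilin1 (-0.10, 95% CI -0.33 to 0.14) did not pass. For Eln the 3 MR13 values were identical (6.08211), so its estimate may not reflect elastin transcript. The reason for this was not tested.

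**Figure D3:**
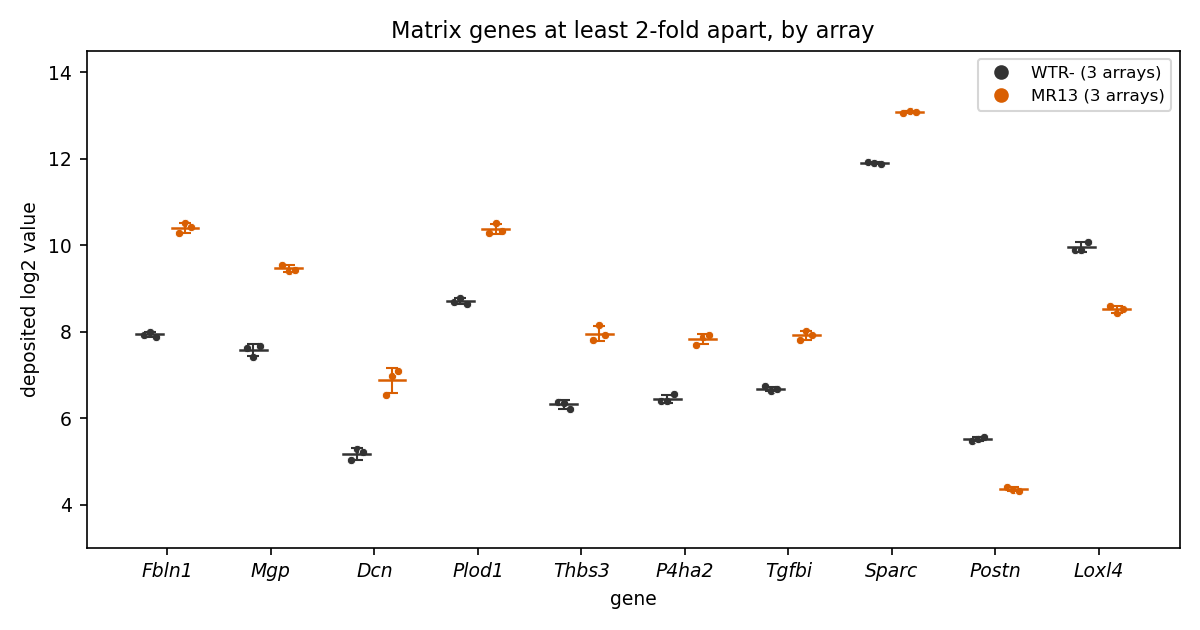
Deposited log2 values (y axis) of the 10 matrix genes that were called and at least 2-fold apart (x axis) for the 3 arrays of each group; dots show single arrays, lines the means and bars the SDs. No gene has overlapping groups, from Fbln1 (7.94 in WTR- and 10.40 in MR13) to Loxl4 (9.96 and 8.52).

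Among the interstitial proteoglycans, Dcn alone was called of 5 measured and rose (20%, near the 17% of all genes that rose). Decorin, its product, is a small leucine-rich proteoglycan that coats collagen fibrils and binds TGF-β. Dcn read 5.03, 5.28 and 5.23 on the WTR- arrays and 6.55, 6.97 and 7.10 on the MR13 arrays (3.24-fold, log2 difference 1.70, SE 0.13, adjusted p = 1.34e-05). MR13 replicate 1 was the lowest of its group, and still lay above every WTR- array. The WTR- values were all below the 30th percentile of genes on their arrays (5.42 to 5.53), so this fold in signal may understate that in transcript. Lum encodes a related proteoglycan and neighbours Dcn on chromosome 10. It read 3.51, 3.31 and 3.40 against 3.37, 3.55 and 3.40 (difference 0.03, 95% CI -0.13 to 0.20), below the 10th percentile of every array, a level at which a change could go unseen. Fmod (0.00, 95% CI -0.11 to 0.12), Bgn (0.06, 95% CI -0.20 to 0.31) and Vcan (0.14, 95% CI -0.03 to 0.31), which encode fibromodulin, biglycan and the large proteoglycan versican, did not pass. Those 3 and Lum were among the dimmest 30% of genes.

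Of 5 measured genes of fibronectin and the basement membrane, 3 were called (60%, beside 37.6% of all genes). Of these, 2 rose (40%, beside 17%) and 1 fell (20%, near the 20.6% of all genes), each by less than 2-fold. Fn1 read 12.99, 12.92 and 12.89 on the WTR- arrays and 13.16, 13.17 and 13.14 on the MR13 arrays (1.17-fold, adjusted p = 0.00726), without overlap. The heparan sulfate proteoglycans of basement membranes diverged. Hspg2, which encodes perlecan, read 9.39, 9.27 and 9.22 against 9.78, 9.87 and 9.76 (1.42-fold higher, adjusted p = 0.000198). Agrn, which encodes agrin, read 10.01, 9.93 and 9.91 against 9.47, 9.43 and 9.37 (1.44-fold lower, adjusted p = 8.18e-05). The groups were apart for both. The linker proteins nidogen 1 and 2 did not pass, with differences of -0.06 for Nid1 (95% CI -0.22 to 0.11) and 0.10 for Nid2 (95% CI -0.04 to 0.24).

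The rest of the matrix machinery was followed in 4 further lists, also chosen with earlier results of these data known. Of 24 measured genes of collagen folding and maturation, 14 rose (58.3%, beside 17% of all genes) and 4 fell (16.7%, beside 20.6%). In all, 75.0% were called, beside 37.6% of all genes, with a median of 0.26. P3h2, a prolyl 3-hydroxylase, rose 6.06-fold (adjusted p = 1.23e-08), Tgm2, the tissue transglutaminase that crosslinks matrix proteins, rose 5.53-fold (adjusted p = 5.43e-08), and Fkbp14, a prolyl isomerase of the endoplasmic reticulum, rose 2.11-fold (adjusted p = 2.45e-05). Of 27 genes that build glycosaminoglycan chains, 12 rose (44.4%, beside 17% of all genes) and 7 fell (25.9%, near the 20.6% of all genes). In all, 70.4% were called, with a median of 0.09. Outside the dimmest 30% of genes, 73.1% of this list and 50.7% of all genes were called. Within the list, Ext1, a heparan sulfate polymerase, rose 2.00-fold (adjusted p = 2.10e-06), and Chst12, a chondroitin sulfotransferase, rose 1.68-fold (adjusted p = 1.90e-05). Csgalnact1, which starts chondroitin chains, fell 2.08-fold (adjusted p = 4.07e-06).

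The last 2 lists held other secreted and surface components. Of 42 other matrix glycoproteins, 12 rose (28.6%, beside 17% of all genes), 3 fell (7.14%, beside 20.6%) and 27 did not pass. Both directions together, 35.7% were called, near the 37.6% of all genes. Ccn2, the connective tissue growth factor gene, averaged 11.93 ± 0.05 in WTR- and 8.81 ± 0.06 in MR13 (SD, n = 3 each), a fall by 8.67-fold (adjusted p = 2.43e-09), while its relative Ccn3 rose from 7.82 ± 0.03 to 10.52 ± 0.02 (6.52-fold, adjusted p = 2.86e-09). Ecm1 rose 3.71-fold (adjusted p = 3.07e-08). Of 27 other proteoglycans, 8 rose (29.6%, beside 17% of all genes) and 1 fell (3.7%, beside 20.6%), so that 33.3% were called. Of the 27, 11 were among the dimmest 30% of genes. The cell surface heparan sulfate carriers Sdc3 (5.79-fold, adjusted p = 6.75e-09) and Gpc1 (2.27-fold, adjusted p = 2.37e-07) rose, and so did Prelp, a leucine-rich relative of Dcn and Lum (5.41-fold, adjusted p = 2.30e-07). Over the 4 lists, 61 of 120 genes were called (50.8%), 46 higher (38.3%, beside 17% of all genes) and 15 lower (12.5%, beside 20.6%). Outside the dimmest 30% of genes, 62.1% of these lists and 50.7% of all genes were called.

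**Figure D4:**
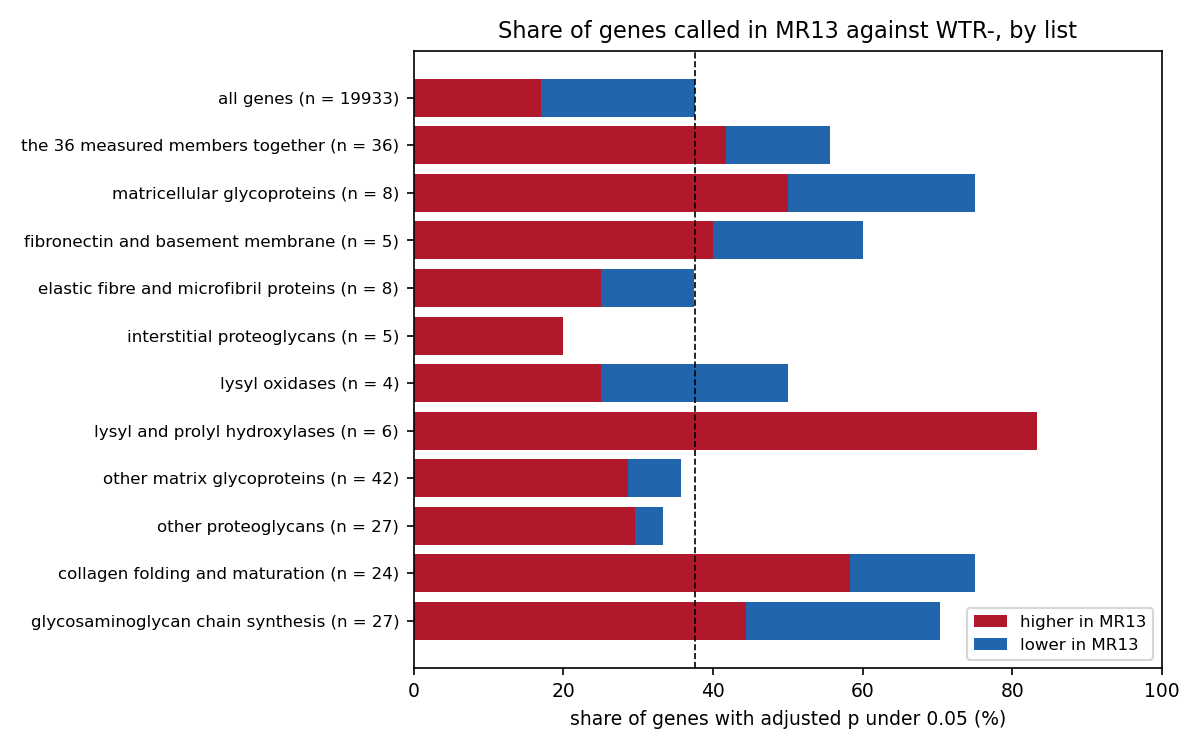
Share of genes with an adjusted p under 0.05 (x axis, percent) in each list (y axis, with the number of genes measured), split into higher and lower in MR13; the dashed line is the 37.6% of all genes. Hydroxylases (83.3%) and genes of collagen folding and maturation (75.0%) lie to the right of it, and interstitial proteoglycans (20.0%) to the left. The lists differ in brightness. Outside the dimmest 30% of genes, 50.7% of all genes, 83.3% of hydroxylases and 81.8% of folding and maturation genes were called. Of the 5 interstitial proteoglycans, 4 were among the dimmest 30%.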

How the data were processed

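Biotin-labelled total RNA of 3 WTR- and 3 MR13 samples, grouped by title, was measured on Affymetrix arrays. The authors deposited log2 values for 28350 probe sets, already normalized. Their processing notes name affy and limma, while versions and the methods of background correction, summarization and normalization are not given in the sources used here. That the scale is log2 was read from the values (2.42 to 14.4, array medians 6.57 to 6.62). Without detection calls, what signal an absent transcript gives could not be set. For arrays, their number limits the precision.

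Platform annotation paired 21780 probe sets with 1 symbol, 1618 with several (named for no gene) and left 4952 unnamed here. Of several probe sets of a gene, that with the highest 6-array mean stood for it, giving 19933 genes. The groups were compared with limma 3.58.1 in R 4.3.3 (lmFit and eBayes), two-sided and without covariates, with Benjamini-Hochberg adjustment over all 19933 genes and a threshold of 0.05. SE and 95% CI are limma's. The script was tested on simulated data. No set test was run, and lists are described by counts and medians beside those of all genes. The 36 matrix genes were all named, and in each of the 4 further lists the 3 called genes with the largest differences and no overlap between groups. P4hb and the markers Pi16, Col14a1, Dpt, Fap, Pdgfrb, Clec3b, Thy1, Col3a1, Cd68 and Ptprc were named after their values were seen. The members and lists were chosen with earlier results of these data known. Alternatives covered normalization, a filter on dim genes, the choice of probe set, the variance model, the methods' t-test, a replicate block, limma's treat and leaving out each array. Promoter windows came from the RefSeq table of GRCm38.p6, which held an entry for 23 of the 36 genes.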

Additional observations from a re-analysis of the deposited data

How the results depend on the processing

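Of the 20 matrix genes called, 19 kept their call and direction in every alternative that tested them except limma's treat, and Lox was the exception. No called matrix gene changed sign. The counts of 15 higher and 5 lower were the same after quantile normalization, centring on medians, averaging probe sets, adjusting over all probe sets and with a trended, robust prior, and the median of all genes moved by under 0.1 with either scaling. Without the dimmest 30% of genes, 8 of the 36 were not tested, and 14 were higher and 4 lower. The methods' t-test left 14 higher and 5 lower. When treat tested for a difference beyond 1.5-fold, 9 were higher and 2 lower, with 1145 genes called in all and 19 of those in the 4 further lists. Leaving out 1 array gave 14 to 15 higher, 5 to 6 lower, 10 at least 2-fold apart, 55 to 60 genes of the further lists and 6716 to 6971 genes in all. The median over the matrix genes was 0.06 to 0.15, lowest without WTR- replicate 3, and it was 0.17 without the dimmest genes. Arrays with the same replicate number were not shown to be paired (correlations of deviations 0.13, -0.00 and 0.18, and not every array correlated best with its own number). With the replicate block, 7442 genes and the same 20 matrix genes were called. Low signal limits the 8 matrix genes among the dimmest 30%.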
